A study of Homo sapiens with 5 samples.

Results

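IFI16 and 7 further genes of DNA sensing (AIM2, MNDA, CGAS, STING1, TREX1, TBK1 and IRF3) were examined on HG-U133 Plus 2.0 arrays of HEK293 cells, a human embryonic kidney line transformed with adenovirus DNA. These 8 genes, of 21357 named on the array, were taken by current or older symbol and were represented by 15 probe sets of 54613. IFI16 was chosen because its signal was lower in the same comparison that is described here, whereas the others were taken for their known role, also with results of these data known. The values of IFI16 are therefore a description and carry no test of their own. The groups were stable HEK293 transfectants of pcDNA4-PRL-1 (n = 2 arrays) and of the empty pcDNA4 vector (n = 3 arrays), all kept in DMEM with fetal bovine serum, penicillin and streptomycin. PRL-1, the product of PTP4A1, is a small prenylated tyrosine phosphatase. A further PRL-1 array was left out by the authors after qRT-PCR of PRL-1. Each array came from its own culture, but each construct was represented by 1 stable line, so that PRL-1 and whatever else sets the lines apart cannot be told apart.

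Double-stranded DNA outside its usual place is read by several sensors. Cyclic GMP-AMP synthase (CGAS) makes a cyclic dinucleotide that activates STING1, an adaptor of the endoplasmic reticulum, and STING1 then brings together the kinase TBK1 and the transcription factor IRF3 to induce type I interferon. IFI16, AIM2, MNDA and PYHIN1 form the PYHIN family, which pairs a pyrin domain for protein contacts with HIN domains that can bind DNA, and their genes lie close to each other on chromosome 1. IFI16 acts mostly in the nucleus and is itself induced by interferon, AIM2 assembles an inflammasome in the cytosol, and TREX1 is an exonuclease that removes cytosolic DNA. HEK293 cells are often used to rebuild the CGAS and STING1 route from added parts, because they make little of these proteins themselves.

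The sequence around a start of IFI16 is shown because IFI16 differed most among the 8 genes and because its neighbours carry a related sequence. RefSeq promoter entries (250 bases before to 50 bases from the start on) were matched for 5 of the 8 genes, with 2 starts for IFI16. The downstream IFI16 start, on the plus strand at chr1:159009657-159009956 of GRCh38.p14, is printed with matches to the core motif of interferon regulatory factors (AANNGAAA, searched on both strands) in capitals.
IFI16: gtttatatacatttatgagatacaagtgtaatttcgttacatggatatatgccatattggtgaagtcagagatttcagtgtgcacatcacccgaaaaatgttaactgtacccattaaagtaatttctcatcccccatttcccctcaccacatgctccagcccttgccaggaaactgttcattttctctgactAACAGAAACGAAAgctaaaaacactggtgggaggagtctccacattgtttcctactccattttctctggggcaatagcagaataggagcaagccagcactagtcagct
It held 2 matches, which begin 58 and 53 bases before the start and overlap each other. The upstream IFI16 start held 1 match, as did the MNDA and AIM2 entries, while those of TREX1, TBK1 and PYHIN1 held none. Of all 35116 promoter entries, 22.8% held at least 1 match. The STAT motif TTCNNNGAA was present in none of these entries and in 7.7% of all entries.

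Local alignment of the downstream IFI16 entry with 35114 entries of other genes placed PYHIN1 at rank 1 and MNDA at rank 2, both on the plus strand of chromosome 1. The aligned stretches are printed with the bases shared with IFI16 in capitals. They belong to chr1:158931302-158931601 (PYHIN1) and chr1:158831101-158831400 (MNDA) of the same build.
PYHIN1: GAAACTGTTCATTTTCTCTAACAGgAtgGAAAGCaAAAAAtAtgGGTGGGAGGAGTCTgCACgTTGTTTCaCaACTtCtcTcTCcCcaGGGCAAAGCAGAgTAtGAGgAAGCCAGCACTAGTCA
MNDA: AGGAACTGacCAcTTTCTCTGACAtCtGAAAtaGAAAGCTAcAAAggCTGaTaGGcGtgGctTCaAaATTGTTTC
The PYHIN1 stretch had 103 identical bases in 129 aligned columns (79.8%), and the MNDA stretch had 56 in 77 (72.7%). AIM2, the nearest gene on the other side of IFI16, ranked 5464 with an aligned stretch of only 10 bases. These are descriptions of the letters and show no binding of any factor.

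Signals were MAS5 intensities, for which every array had been scaled to one trimmed mean, and a signal of 100 was used as the lower limit of a measured level. The median signal was 124.2 and 143.5 on the PRL-1 arrays and 135.4 to 166 on the vector arrays. Vector replicate 3 stood apart, with r of 0.938 to 0.947 against the other arrays, which reached up to 0.964 among themselves. PTP4A1 gave log2 differences of 0.06 to 0.15 in its 4 tested probe sets (limma adjusted p from 0.737 to 0.892). No source used here says whether its probes lie in the transcript of the construct, and PRL-1 below means the arrays labelled so. Of 7 genes known from HEK293 cells, 6 were above the limit, NEFL and VIM among them, and NEFM was not.

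IFI16 was lower on both PRL-1 arrays in each of its 3 probe sets. In probe set 206332_s_at the signal was 442.1 and 362 on the PRL-1 arrays, against 1332.5, 1456.6 and 1374.2 on the vector arrays. In 208966_x_at it was 369.8 and 417.5 on the PRL-1 arrays, against 1287.9, 1314.9 and 1349.6 on the vector arrays. In the dimmer 208965_s_at it was 179.8 and 227.8 on the PRL-1 arrays, against 411.4, 536.4 and 651.1 on the vector arrays. No PRL-1 array reached the lowest vector array in any of them, and all 15 values lay above 100. That limit lies under the median signal of every array, and no presence calls were used. Whether IFI16 RNA remained in PRL-1 cells was therefore not tested. In these bulk cultures, fewer cells with IFI16 and less IFI16 RNA in each cell cannot be told apart.

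**Figure D1:**
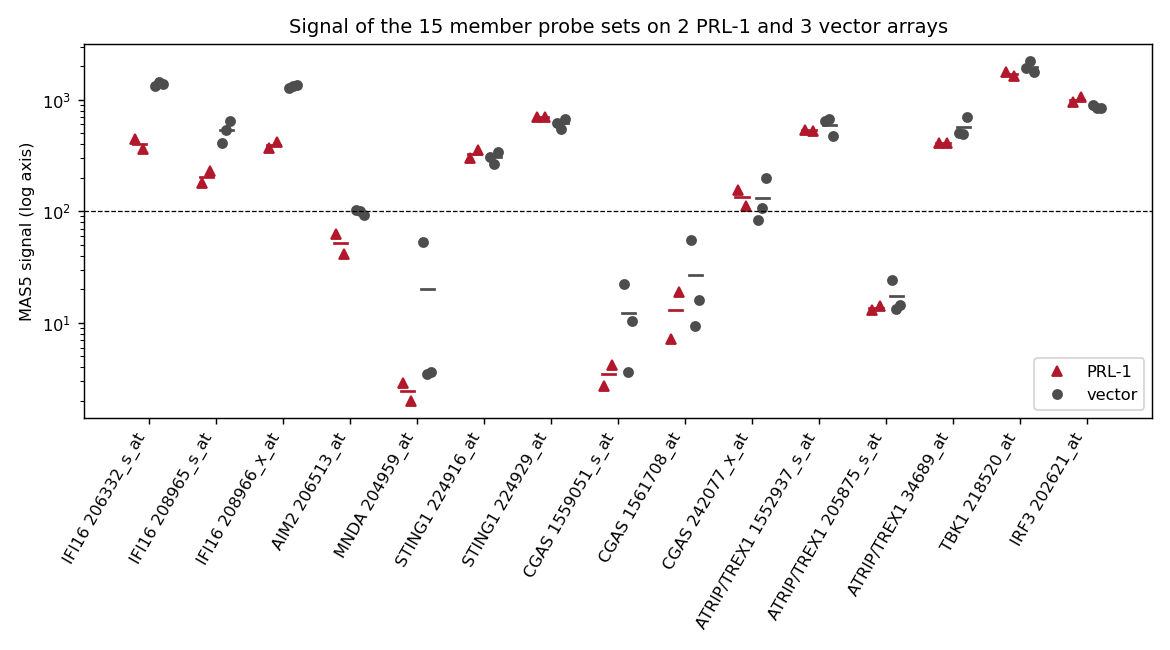
MAS5 signal (log axis) of the 15 probe sets of the 8 genes on 2 PRL-1 arrays (triangles) and 3 vector arrays (circles), with group means as short bars and a dashed line at 100. The 3 IFI16 probe sets separate widely between the groups, while MNDA and 2 of 3 CGAS probe sets lie under the line on all arrays.

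The group means of IFI16 in 206332_s_at were 402 ± 56.7 (SD, n = 2) in PRL-1 cells and 1388 ± 63.1 (SD, n = 3) in vector cells, 3.47-fold lower. In 208966_x_at they were 393.6 ± 33.7 in PRL-1 cells and 1317 ± 30.9 in vector cells, 3.35-fold lower. In 208965_s_at they were 203.8 ± 33.9 in PRL-1 cells and 533 ± 120 in vector cells, 2.59-fold lower. The gaps between the means exceeded the spread within either group in all 3 probe sets. The choice of IFI16 on this comparison favours such gaps, and the 3 probe sets share the same arrays. On the log2 scale the differences were -1.79, -1.75 and -1.37, at ranks 146, 170 and 353 from the lowest of 33818 tested probe sets. The limma adjusted p values by which the gene was chosen were 0.00225, 0.00182 and 0.0893 in the same order. Thus 2 probe sets lay inside the threshold of 0.05 and 208965_s_at lay outside it. In this comparison 0.192% of tested probe sets were called, and 0.133% were called lower in PRL-1 cells. The suffixes _s_at and _x_at mark probe sets that can bind more than 1 transcript, and what other transcripts add to the IFI16 signal was not tested.

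The IFI16 probe sets moved together over the 5 arrays, with r of 0.927 to 0.985 on the log2 scale, which mainly reflects the distance between the groups. They differed in their spread within the vector group. Vector replicate 3 was the highest vector array in 208965_s_at and 208966_x_at, and vector replicate 2 was the highest in 206332_s_at. Of the PRL-1 arrays, replicate 1 was the higher in 206332_s_at and the lower in the remaining probe sets.

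In all 3 probe sets the IFI16 difference stayed below -1 on the log2 scale under each of 14 alternative settings. Its extremes were -1.94 and -1.20. Several of these settings could not alter its size. The filters, eBayes without a trend and the unmoderated test leave the difference of log2 means as it is. The replicate block gives the same values as the fit without vector replicate 3. Under the remaining settings the difference changed little. Without vector replicate 3 it was -1.80 in 206332_s_at, -1.73 in 208966_x_at and -1.22 in 208965_s_at. The calls varied more, and 206332_s_at and 208966_x_at were each called in 11 of the 14 settings, with adjusted p of up to 0.249 and 0.149. Both were lost when eBayes was run without a trend and by the unmoderated test that the study's methods name. That test was run here over all 33818 probe sets, without the study's presence filter and at a threshold of 0.05, so its adjusted p are not those of the study and say nothing of the calls made there. Beyond these, 206332_s_at missed the threshold without PRL-1 replicate 2 (adjusted p = 0.0507) and 208966_x_at without PRL-1 replicate 1 (adjusted p = 0.0614). The third probe set, 208965_s_at, was called in 4 settings, among them the fit without vector replicate 3 (adjusted p = 0.0422). All these calls use the arrays on which IFI16 was chosen and lend it no support.

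**Figure D2:**
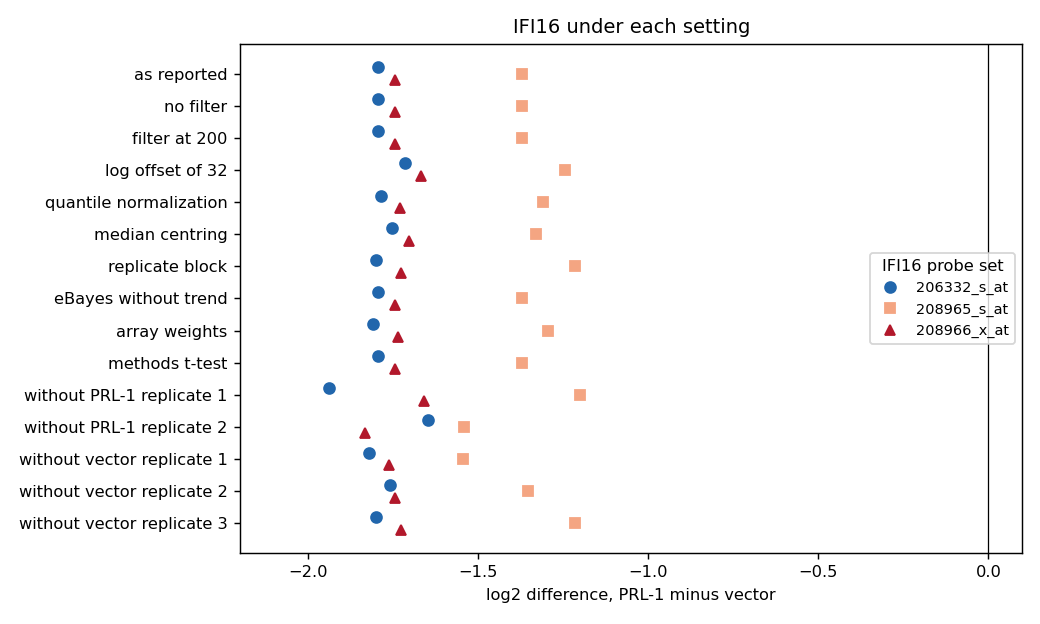
Log2 difference of IFI16, PRL-1 minus vector, in its 3 probe sets as reported and under 14 alternative settings, which include leaving out each array. All points lie between -1.94 and -1.20, and the left-out PRL-1 arrays move 206332_s_at to -1.94 and -1.65. The filters, eBayes without a trend and the unmoderated test cannot move the points.

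The other PYHIN members were dim. AIM2, the sensor of the cytosolic inflammasome, gave 62.5 and 41.3 on the PRL-1 arrays, against 102.5, 100.1 and 92.7 on the vector arrays. The PRL-1 values lay below all vector values, but the probe set entered the test only through 2 vector arrays just above 100, and no fold is given since both groups lie about or under that limit. It was not called (limma adjusted p = 0.624). MNDA, a nuclear antigen of myeloid cells, gave 2.9 and 2 on the PRL-1 arrays, against 53, 3.5 and 3.6 on the vector arrays. All of these lie under the limit, so that MNDA was not tested and no difference in it can be read.

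CGAS, the enzyme that makes the second messenger, was near the limit in its brightest probe set and under it in the others. In 242077_x_at the signal was 155.6 and 111.9 on the PRL-1 arrays, against 83.9, 105.9 and 200.8 on the vector arrays. The groups overlapped, and the log2 difference of 0.12 had a wide interval (95% interval -0.89 to 1.13, limma adjusted p = 0.953). In 1559051_s_at it was 2.7 and 4.2 on the PRL-1 arrays, against 22.4, 3.6 and 10.4 on the vector arrays, and in 1561708_at it was 7.2 and 18.9 on the PRL-1 arrays, against 54.8, 9.3 and 16 on the vector arrays. Neither of these probe sets was tested.

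STING1, the adaptor that receives this messenger, was measured on all arrays by both of its probe sets. In 224929_at the signal was 705.2 and 701.6 on the PRL-1 arrays, against 618, 548.6 and 672.7 on the vector arrays. Both PRL-1 arrays were the higher there, by 0.20 on the log2 scale (95% interval -0.13 to 0.54, limma adjusted p = 0.697). In 224916_at it was 302.7 and 353.5 on the PRL-1 arrays, against 308.6, 266.2 and 342 on the vector arrays. These groups overlapped, with a difference of 0.11 (95% interval -0.34 to 0.55, limma adjusted p = 0.893).

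All 3 probe sets of TREX1 were annotated to ATRIP as well, the overlapping gene for a partner of the checkpoint kinase ATR, and their signals cannot be assigned to either gene. In 34689_at the signal was 413.3 and 412.9 on the PRL-1 arrays, against 503.4, 490.8 and 702.8 on the vector arrays. Both PRL-1 arrays were the lower, by a log2 difference of -0.43 (95% interval -0.867 to 0.001). It was not called (limma adjusted p = 0.514), and its unadjusted limma p of 0.0503 lay at the edge of 0.05. In 1552937_s_at it was 533.4 and 527.1 on the PRL-1 arrays, against 646, 666.6 and 474.7 on the vector arrays, and the groups overlapped (log2 difference -0.15, 95% interval -0.56 to 0.26, limma adjusted p = 0.823). The last probe set, 205875_s_at, gave 12.9 and 14.2 on the PRL-1 arrays, against 24.1, 13.3 and 14.5 on the vector arrays, and was not tested.

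TBK1 and IRF3, the kinase and the factor at the end of the route, were well measured. TBK1 gave 1762.7 and 1635 on the PRL-1 arrays, against 1940.7, 2227.5 and 1759.5 on the vector arrays. The ranges overlapped by PRL-1 replicate 1 and vector replicate 3, and the log2 difference was -0.21 (95% interval -0.51 to 0.09, limma adjusted p = 0.65). IRF3 gave 948.6 and 1053.8 on the PRL-1 arrays, against 906.3, 839.8 and 838.3 on the vector arrays. Both PRL-1 arrays were the higher, with group means of 1001 ± 74.4 (SD, n = 2) in PRL-1 cells and 861.5 ± 38.9 (SD, n = 3) in vector cells. This log2 difference of 0.22 was not called either (95% interval -0.08 to 0.51, limma adjusted p = 0.629).

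Of the 12 probe sets outside IFI16, 8 were tested and 0 were called by limma, and 0 reached an unadjusted p of 0.05. The unmoderated test gave 1 at that level, AIM2, of which nothing is read because it passed the limit only through the vector arrays. Of the 7 that reached the limit in both groups, 3 did not overlap (34689_at of ATRIP and TREX1, 224929_at of STING1, and IRF3), where 28.9% of all tested probe sets did not overlap. The intervals allow for a change of moderate size in several of them, and in CGAS for one of about a doubling in either direction.

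**Figure D3:**
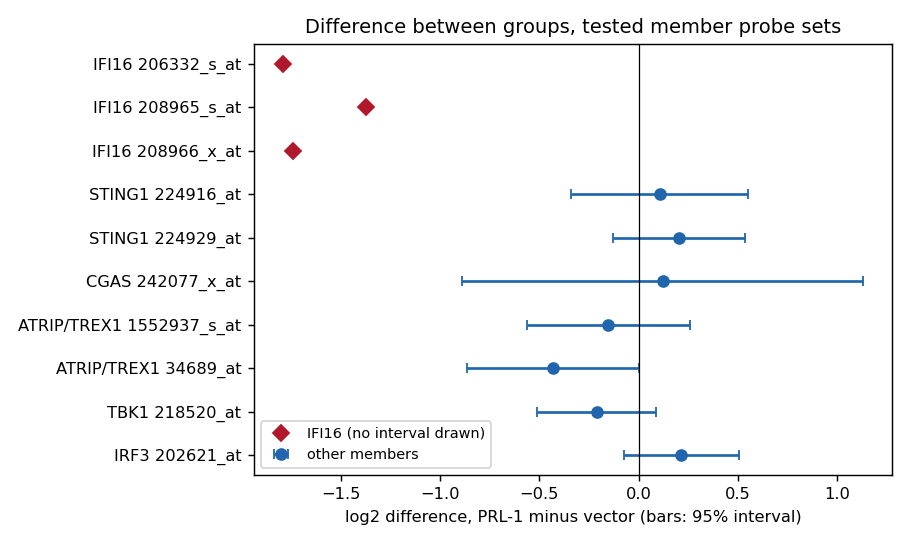
Log2 difference, PRL-1 minus vector, of the tested probe sets, with 95% intervals from limma for genes other than IFI16. IFI16 is drawn without intervals because it was chosen on these values, and AIM2 is left out because both groups were dim. All drawn intervals span 0, that of 34689_at of ATRIP and TREX1 only just (upper end 0.001).

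The wider pathway was described by lists of genes around DNA sensing, taken at 1 probe set a gene. Of 186 listed genes, 177 were on the array and 144 were tested, and 0 of these were called in either direction by limma. Of all 14546 genes tested, only 12 were called higher and 24 lower. With calls so rare, 0 calls in lists of this size are no result about them. At an unadjusted p of 0.05, 9 of the 144 genes were higher and 6 lower (10.4%), where 11.4% of all genes reached that level. The unmoderated test gave 11 of 144 (7.64%), against 9.96% of all genes. The median log2 difference of the 144 genes was -0.01, beside -0.03 over all genes. Without vector replicate 3, 4 of these genes were called, namely ENPP1, NBN, RNF135 and DTX3L (2.78%), while calls over all genes went up as well, to 1.36%. The 157 further tested probe sets of the listed genes, which were not the brightest of their gene, gave 0 calls by limma. Of these, 9 were higher and 7 lower at an unadjusted p of 0.05 (10.2%). In some genes a further probe set went the other way from the brightest, among them TRAF3, TRIM32, IL1B and TRIM25.

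Among 22 other sensors and their partners, the median difference was 0.00 on the log2 scale to 2 decimals, with 0 called. POLR3F, a subunit of the RNA polymerase that transcribes cytosolic DNA into an RNA ligand, gave 976.3 and 1048 on the PRL-1 arrays, against 701.5, 645 and 421.9 on the vector arrays (log2 difference 0.81, limma adjusted p = 0.287). NBN, of the MRE11 complex at DNA breaks, gave 1185.4 and 1111.8 on the PRL-1 arrays, against 1635.8, 1684.8 and 1434.5 on the vector arrays. Its log2 difference of -0.46 was not called with all arrays (limma adjusted p = 0.29) and was called at -0.53 without vector replicate 3 (adjusted p = 0.0444). The groups did not overlap in either gene. DHX9, a helicase, differed by 0.28 and HNRNPA2B1, the brightest of the list, by -0.07 on the log2 scale.

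On the STING1 route, 0 of 19 tested genes were called, with a median log2 difference of -0.06. At an unadjusted limma p of 0.05, 1 was higher and 3 were lower (21.1%, against 11.4% of all genes). ENPP1, which breaks down the CGAS product outside the cell, came closest. It gave 1804.9 and 1758 on the PRL-1 arrays, against 2762.4, 3234.5 and 2853.1 on the vector arrays. The log2 difference was -0.72 (limma adjusted p = 0.082), and without vector replicate 3 it was -0.75 and called (adjusted p = 0.0145). SEC24C, of the vesicle coat that carries STING1 from the endoplasmic reticulum, gave 988.2 and 1002.4 on the PRL-1 arrays, against 1973.4, 1356.4 and 1384.2 on the vector arrays, with a log2 difference of -0.64 (limma adjusted p = 0.294). TRIM32, a ubiquitin ligase that modifies STING1, differed by 0.45 (limma adjusted p = 0.317), and TMED2, the brightest of the list, by -0.07.

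Among the kinases and factors, 0 of 20 tested genes were called, with a median log2 difference of -0.03. AZI2, an adaptor of TBK1, gave 734.4 and 694.1 on the PRL-1 arrays, against 1021.8, 926.3 and 938 on the vector arrays, and did not overlap between the groups (log2 difference -0.43, limma adjusted p = 0.331). TRAF3 and IRF8 differed by 0.43 each, and CHUK, the brightest, by -0.01. None of 12 tested nucleases and DNA-handling genes was called by limma, and 1, PNPT1 at 0.35, reached an unadjusted p of 0.05. SAMHD1, which degrades deoxynucleotides, also differed by 0.35, and BANF1, a DNA-binding protein that competes with CGAS, by 0.17. The lysosomal nuclease DNASE2 differed by -0.39 (limma adjusted p = 0.564).

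Of 14 inflammasome genes on the array only 5 passed the limit, and 0 of them were called by limma or reached an unadjusted p of 0.05 in the brightest probe set. IL1B differed by 0.24, CASP1 by 0.17, NLRP1 by -0.22 and CASP8 by -0.02 on the log2 scale. Dimmer probe sets of both caspases were lower at that level but not called. CASP1, the inflammasome protease, gave 102.9 and 55.7 on the PRL-1 arrays in its dimmer probe set, against 144.2, 205.8 and 198.2 on the vector arrays (log2 difference -1.25, limma adjusted p = 0.365). CASP8 in its dimmest tested probe set gave 26.2 and 213.2 on the PRL-1 arrays, against 211.2, 238.1 and 304.7 on the vector arrays, where only PRL-1 replicate 1 stood apart (log2 difference -1.73, limma adjusted p = 0.489). Of 7 tested genes of RNA sensing, RNF135, a ubiquitin ligase of the sensor RIG-I, gave 784.7 and 850.5 on the PRL-1 arrays, against 435.2, 490.1 and 494 on the vector arrays. The PRL-1 values lay well above all vector values (log2 difference 0.79, limma adjusted p = 0.126), and the gene was called without vector replicate 3 (0.82, adjusted p = 0.0293). TRIM25 and EIF2AK2 differed by -0.21 and -0.13.

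Interferon-stimulated genes, which include IFI16 by their definition, were listed without it. Of 39 tested genes 0 were called by limma, 5 were higher and 1 was lower at an unadjusted p of 0.05 (15.4%, against 11.4% of all genes), 23 lay below 0, and the median log2 difference was -0.11, beside -0.03 over all genes. The members of this list ran in both directions, between -0.64 and 1.31. DTX3L and PARP9, partners in a ubiquitin ligase and ADP-ribosylation complex, were higher on both PRL-1 arrays. DTX3L gave 1256.1 and 1101 on the PRL-1 arrays, against 789, 747.6 and 490.6 on the vector arrays (log2 difference 0.83, limma adjusted p = 0.271), and it was called at 0.61 without vector replicate 3 (adjusted p = 0.0494). PARP9 gave 648.7 and 577.8 on the PRL-1 arrays, against 395, 403.7 and 480 on the vector arrays (log2 difference 0.53, limma adjusted p = 0.351).

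IFITM3, which blocks virus entry and whose probe set has the _x_at suffix, gave 631.8 and 564.3 on the PRL-1 arrays, against 378.5, 387.6 and 175.9 on the vector arrays (log2 difference 1.01, limma adjusted p = 0.375). Its lowest value was vector replicate 3, as it was for DTX3L. OAS3, of the antiviral oligoadenylate synthetases, and TRIM14 were the remaining genes higher at that level, named after their values were seen, with log2 differences of 1.31 and 0.41 (limma adjusted p = 0.393 and 0.509). LGALS3BP, the brightest of the list, differed by -0.12. IFIT1, named here after its values were seen because it was the 1 gene of the list lower at an unadjusted p of 0.05, gave 317.7 and 338.2 on the PRL-1 arrays, against 466.8, 441.6 and 422.1 on the vector arrays (log2 difference -0.43, limma adjusted p = 0.437). Against the vector mean, the median of the list was -0.10 and 0.04 on the PRL-1 arrays, and -0.01, -0.05 and 0.16 on the vector arrays.

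Receptors and signal carriers of interferon had a median log2 difference of -0.08 over 14 tested genes, with 0 called by limma and 0 at an unadjusted p of 0.05. IL10RB differed by -0.33, IFNAR1 by -0.33, TYK2 by -0.31 and IFNGR2, the brightest, by -0.03. Of 6 tested genes of growth arrest and p53 signalling that IFI16 has been tied to, 0 were called. RB1 and CDKN1A, which restrain the cell cycle, differed by 0.28 each, MDM2 by 0.12 and CDKN2A by 0.07.

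**Figure D4:**
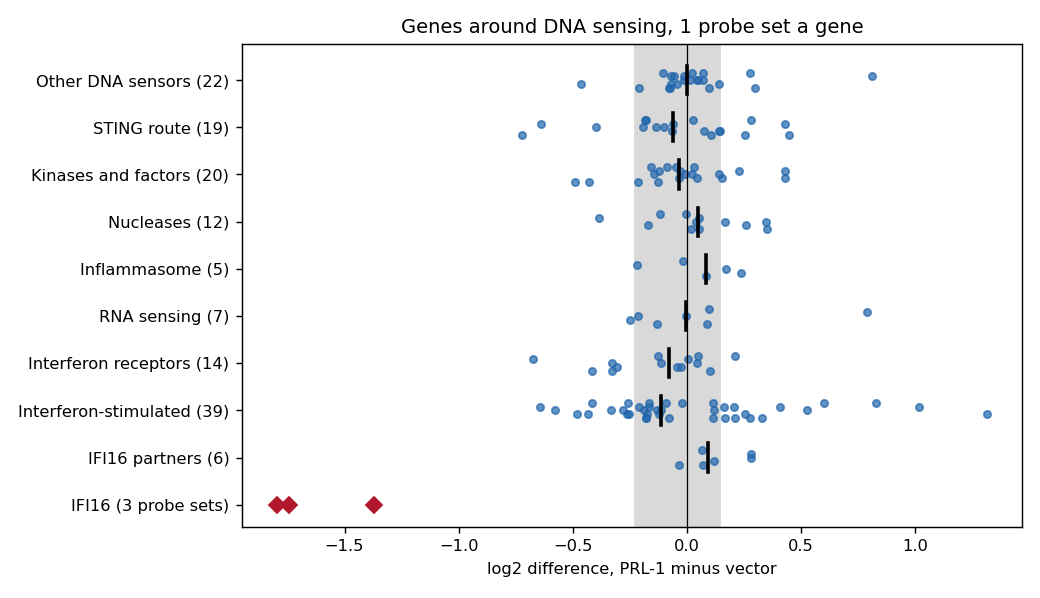
Log2 difference, PRL-1 minus vector, of genes around DNA sensing at 1 probe set a gene (points), with list medians (black bars) and the interquartile range of all genes tested (grey, -0.23 to 0.14). The list medians lie between -0.11 and 0.09. The IFI16 probe sets (diamonds), a gene chosen on this comparison, lie below the brightest probe set of every listed gene. Dimmer probe sets of the listed genes are not drawn. Among these, a CASP8 probe set at -1.73 lies below the highest IFI16 diamond at -1.37.

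The 10 nearest protein-coding genes on each side of IFI16 were followed on the array. Of these 20 genes, 9 had a probe set and 4 were tested (PYHIN1, AIM2, CADM3 and OR10J1), and 9 of the 15 probe sets were under 100 on all arrays. PYHIN1, whose start resembles that of IFI16, gave 107.6 and 131.8 on the PRL-1 arrays in 216748_at, against 137, 123.7 and 74.1 on the vector arrays. Its groups overlapped (log2 difference 0.14, limma adjusted p = 0.939). CADM3, an adhesion molecule, gave 247.1 and 188.1 on the PRL-1 arrays in 211677_x_at, against 162, 153.8 and 218.4 on the vector arrays (log2 difference 0.29, limma adjusted p = 0.766). OR10J1, an olfactory receptor gene, varied widely within both groups. None of the neighbouring probe sets was called by limma or reached an unadjusted p of 0.05 by it, and by the unmoderated test 1 did, the dim AIM2 probe set that passed the limit only through vector arrays.

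**Figure D5:**
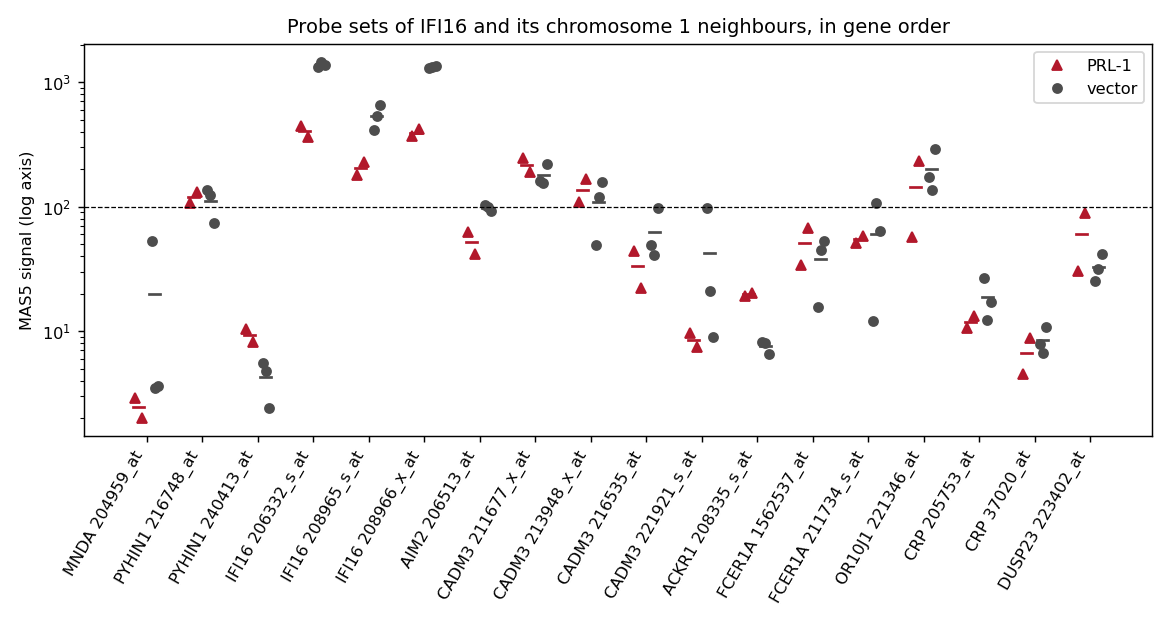
MAS5 signal (log axis) of IFI16 and of its neighbours on chromosome 1 in gene order, on 2 PRL-1 arrays (triangles) and 3 vector arrays (circles), with group means as short bars and a dashed line at 100. IFI16 is the only gene shown with vector signals above 400, and most neighbours lie under the line.

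The probe sets whose signal followed that of 206332_s_at most closely over the 5 arrays were sought among 1665 candidates. They were TCF24 (r = 0.998), CNTN1 (r = 0.997), EFR3A (r = 0.996), SLC6A15 (r = 0.994) and UNC5B (r = 0.994). All are lower on both PRL-1 arrays, and with 2 groups of arrays such a value mainly ranks how even the signals were within each group. CNTN1, a neuronal adhesion molecule, gave 71.1 and 63.6 on the PRL-1 arrays, against 780.1, 830 and 784.7 on the vector arrays. EFR3A gave 541.2 and 528.3 on the PRL-1 arrays, against 1177.3, 1277.4 and 1221.5 on the vector arrays.

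Markers of other cells were set beside IFI16, which leukocytes, fibroblasts and endothelial cells also express. Of 10 leukocyte markers measured, 5 did not reach the limit on 2 arrays (PTPRC, CD14, LYZ, SPI1 and TYROBP), and the summed signal was 1004 to 1296 on PRL-1 arrays and 1200 to 1448 on vector arrays. Of 7 fibroblast markers, COL1A2 and PDGFRA did not, with sums of 1479 to 1912 on PRL-1 arrays and 1721 to 2231 on vector arrays. Of 5 endothelial markers, CDH5, KDR, TEK and VWF did not, with sums of 448 to 509 on PRL-1 arrays and 566 to 838 on vector arrays. The sums were lower on PRL-1 arrays on average, but they include markers under the limit, and the tested markers ran in both directions. ITGAM, CSF1R, COL3A1 and COL1A1 differed by 0.418, 0.275, 0.23 and 0.094 on the log2 scale. FCER1G, CD79A, CD3E, THY1, DCN, LUM and PECAM1 differed by -0.571, -0.201, -0.096, -0.542, -0.168, -2.061 and -0.422. PECAM1 made up most of the endothelial sum, and its dimmer probe set overlapped between the groups (0.101). Limma called 0 markers in any list, and their part in the IFI16 difference was not tested.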

How the data were processed

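HG-U133 Plus 2.0 arrays of 2 HEK293-PRL-1 and 3 HEK293-vector cultures were analysed. The deposited values were MAS5 signal intensities, which the authors computed from the scanned arrays with the affy package under default parameters. This procedure scales the trimmed mean of each array (2% left out at each end) to 500. The presence calls of the authors' filter were not used here. Probe sets were named from the platform annotation (41091 with 1 symbol, 1801 with several, 11721 not in the annotation used), and 62 control probe sets were left out.

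Signals were taken to log2, and probe sets with at least 100 on at least 2 arrays were tested (33818 of 54613). limma 3.58.1 in R 4.3.3 was fitted to all of them (lmFit, eBayes with intensity trend, two-sided, no block), p-values were adjusted by Benjamini-Hochberg, and a call was an adjusted p of at most 0.05. The script was checked on simulated data. A gene in a list was taken at its brightest probe set. Named genes were all member probe sets, the called genes of each list with up to 3 further genes of smallest p and the brightest gene, the neighbours, and the 5 probe sets most like IFI16 (1 symbol, mean signal of at least 200, log2 range of at least 1). The methods' t-test, an unmoderated test, was run on the same values. Other alternatives were the filter, an offset, the scaling, the replicate block, the eBayes trend, array weights and each array left out. Members and lists were chosen with earlier results of these data known. The number of arrays limits the precision, and the p-values measure the spread between cultures of 1 line a group.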

Additional observations from a re-analysis of the deposited data

How the results depend on the processing

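The 2 called member probe sets, both of IFI16, numbered 2 or 3 under no filter, a filter at 200, a log offset of 32, quantile normalization, median centring and array weights, and 0 with eBayes without a trend and with the methods' t-test, which was run over 33818 probe sets without the study's presence filter (0 at an adjusted p of 0.1 as well). Leaving out 1 array gave 1 to 3. The direction of every member probe set was kept wherever it was called. Those called were of IFI16, which was chosen on this comparison, so that these counts lend it no support. Over all probe sets the count of 65 was less stable, with 9 without a trend, 275 with array weights and 0 with the methods' t-test (2905 at an unadjusted p of 0.05). Leaving out 1 array gave 11 to 313, the highest without vector replicate 3 and the lowest without PRL-1 replicate 1. The filter, the offset and the scalings gave 49 to 65. The 0 called pathway genes became 2 with array weights (ENPP1 and RNF135), and leaving out 1 array gave 0 to 4, the 4 only without vector replicate 3. Same-numbered arrays did not deviate together (r of 0.064 for number 1 and -0.059 for number 2), so the numbers were not taken to pair the samples. With the replicate block 3 member probe sets, 448 probe sets and 5 pathway genes (ENPP1, NBN, SEC24C, DTX3L and RNF135) were called. Number 3 is held by vector replicate 3 alone, so the block fits that array exactly. The differences under the block are therefore those of the fit without vector replicate 3. The excess of lower over higher calls (20 higher and 45 lower) was not kept without vector replicate 3 (164 higher, 149 lower), with the block (237 and 211) or with array weights (134 and 141). Apart from this overlap of the block with the fit without vector replicate 3, the cause of these shifts was not tested. A lone PRL-1 array took its spread from the vector group. Signals near 100 limit what can be read of AIM2, CGAS and MNDA.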
